A study of Mus musculus with 21 samples.

Results

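The genes described here were 7 cytochrome P450 genes of mouse liver, Cyp2b10, Cyp2b9, Cyp2b13, Cyp2c54, Cyp2c39, Cyp2c55 and Cyp3a13. They were followed through a study of female C57BL/6 mice that received titanium dioxide nanoparticles (nano-TiO2) into the trachea. Their probes were found through the transcript identifier that the scanner files give each probe. This gave 9 probes for 7 genes, of 41174 probes and 16535 named genes on the array, and all 9 passed the filter on dim probes. The genes had been chosen by measured values of the same arrays, their lower log2 ratios in control livers at day 28 than at day 1, so that difference is given as a description and was not tested.

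The study had 4 groups, and each liver was hybridised on 1 array. In the TiO2 groups, 6 mice at day 28 and 6 mice at day 1 had received a single dose of 162 µg of nano-TiO2 in 40 µl. In the control groups, 4 mice at day 28 and 5 mice at day 1 had received 40 µl of the vehicle alone, which was saline with cell-free lavage fluid of other mice. The mice were bought at 5 to 7 weeks of age and acclimatised for 1 to 3 weeks, and all were anaesthetised with Hypnorm and Dormicum at instillation and again when killed. Day 1 livers were thus taken 24 hours after a first anaesthesia and day 28 livers 28 days after it, and in all groups time since instillation, time since that anaesthesia and age cannot be told apart.

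Cytochrome P450 enzymes of the CYP2B, CYP2C and CYP3A subfamilies oxidise steroids, fatty acids, drugs and other foreign compounds in hepatocytes. Many of their genes are controlled by the nuclear receptors CAR (Nr1i3) and PXR (Nr1i2), which act with the retinoid X receptor on promoter and enhancer elements. Cyp2b10 is the usual marker gene of CAR activation in mouse liver, and Cyp2b9 and Cyp2b13 are known for higher expression in female than in male mice. Liver P450 RNA levels are also known to follow feeding, the time of day, growth hormone and inflammation.

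The RefSeq promoter table (GRCm38.p6) held an entry for 6 of the 7 genes, with Cyp2c54 not among them. The first 2 sequences shown here belong to the genes that passed the test between days in TiO2 livers. The other two belong to the pair of Cyp2b genes whose promoters are nearly identical and whose probes disagreed. Each line holds the 250 bases before the transcription start, read 5′ to 3′ on the strand of the gene, and capitals mark AGGTCA, the half-site that nuclear receptors of this class recognise.
Cyp2b10, chr7:25897408-25897657, plus strand: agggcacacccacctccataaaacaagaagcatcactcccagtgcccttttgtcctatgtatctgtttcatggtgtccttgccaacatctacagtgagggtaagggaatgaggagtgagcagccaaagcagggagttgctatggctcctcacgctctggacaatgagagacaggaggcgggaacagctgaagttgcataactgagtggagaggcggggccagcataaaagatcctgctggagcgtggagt
Cyp3a13, chr5:137921620-137921869, minus strand: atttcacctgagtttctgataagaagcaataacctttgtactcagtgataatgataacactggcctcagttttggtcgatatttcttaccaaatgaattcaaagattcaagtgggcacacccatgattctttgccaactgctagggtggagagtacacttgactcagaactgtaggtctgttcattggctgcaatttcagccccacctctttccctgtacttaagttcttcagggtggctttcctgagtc
Cyp2b9, chr7:26173159-26173408, plus strand: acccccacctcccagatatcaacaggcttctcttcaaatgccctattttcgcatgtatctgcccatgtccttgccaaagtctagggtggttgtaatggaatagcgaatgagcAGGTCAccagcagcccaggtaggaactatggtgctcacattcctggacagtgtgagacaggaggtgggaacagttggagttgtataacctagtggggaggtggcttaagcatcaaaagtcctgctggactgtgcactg
Cyp2b13, chr7:26061245-26061494, plus strand: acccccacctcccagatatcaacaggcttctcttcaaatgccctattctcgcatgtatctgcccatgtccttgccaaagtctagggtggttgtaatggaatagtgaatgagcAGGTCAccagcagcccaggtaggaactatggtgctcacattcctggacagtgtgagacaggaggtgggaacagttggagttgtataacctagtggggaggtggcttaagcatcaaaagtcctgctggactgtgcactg
The promoters of Cyp2b9 and Cyp2b13 were identical at 248 of 250 positions (99.2%). They differed by T48C and C104T, with the base of Cyp2b9 first and positions counted from 1 at the 5′ end. That of Cyp2b10 matched either of them at 182 of 260 aligned columns (70%). AGGTCA, searched on both strands, was found in the promoters of Cyp2b9 and Cyp2b13 at base 113 and in 1 of the 2 promoters of Cyp2c39, so in 3 of 6 members. Over the table it was found in 14% of all 32851 promoters (4607). That share counts promoters and not genes, and 2 of the 3 members are the nearly identical pair, so no enrichment can be read from it. The direct repeat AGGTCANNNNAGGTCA, which holds the half-site at both ends, was found in none of the 6 members and in 5 of all promoters (0.0152%). Such a match describes letters within 250 bases and nothing beyond them. In the RefSeq annotation 3 genes lie between Cyp2b10 and Cyp2b13 and 3 between Cyp2b13 and Cyp2b9, all on chromosome 7.

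Values are log2 ratios of liver RNA (Cy5) over a common reference RNA from a pool of mouse cell lines (Cy3), so a difference of 1 is a 2-fold change. Levels are compared between mice for 1 probe and never between probes. The label protocol of extraction names lung, while title, source and tissue name liver. All 14 hepatocyte markers on the array, albumin among them, were well above background on every array. The median log2 ratio of the 13 lung epithelium markers lay between -0.11 and 0.23 on each of the 21 arrays. Of the 13, 8 to 11 were well above background on the arrays of scan day 2 and 3 to 6 on the others. Cyp2f2, the brightest of those tested, was also on the list of periportal hepatocyte markers. The number of probes well above background in the liver channel lay between 12985 and 26616, and arrays were scanned on 3 days, each of which held all 4 groups. Scan day accounted for 91.7% of the first principal component and group for 1.50%.

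In TiO2 livers, whose values the choice of genes did not rest on, though earlier results on them were known, Cyp2b10 and Cyp3a13 fell between day 1 and day 28 by the test across all features. Cyp2b10 was 5.38-fold lower and Cyp3a13 1.62-fold lower at day 28 than at day 1. Cyp2c54, Cyp2c55 and Cyp2c39 had lower means at day 28 by 0.95, 0.80 and 0.56 on the log2 scale without passing the test, and Cyp2b9 and Cyp2b13 showed little difference beside their spread. Limma on 17640 features with all 4 groups in the fit and Benjamini-Hochberg adjustment called 6 features (0.0340%), all of them lower at day 28. The 17640 features were 1 probe for each of 11255 named genes, and every kept probe without a gene name by itself. The 2 called members stand beside 5 of 7 members at an unadjusted p under 0.05, against 3.73% of all features in either direction. The median difference was -0.69 over the 7 members, against 0.0035 over all features.

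Cyp2b10 stood between 1.09 and 2.04 in the 6 TiO2 livers at day 28, with a median of 1.52, and between 3.45 and 4.71 in the 6 TiO2 livers at day 1, with a median of 3.94. In control livers at day 28 it was 1.62, 2.35, 2.51 and 1.26, and in control livers at day 1 it was 3.72, 2.35, 4.42, 2.15 and 4.23. The TiO2 groups were apart by a wide gap, whereas the control groups overlapped because 2 of the 5 control mice at day 1 were as low as control mice at day 28.
Its means were 1.54 ± 0.34 in TiO2 livers at day 28 and 3.97 ± 0.43 in TiO2 livers at day 1 (SD, n = 6 each), a difference of -2.43 ± 0.34 (SE) with a 95% interval from -3.13 to -1.72. The adjusted p of limma was 0.00616, and no other of the 17640 features had a smaller p. In control livers the means were 1.93 ± 0.59 at day 28 (n = 4) and 3.38 ± 1.06 at day 1 (n = 5), a difference of -1.44 ± 0.39. This SE pools the spread of all 4 groups, and the control groups had the wider SDs.
By group mean the order was TiO2 day 1, control day 1, control day 28 and TiO2 day 28, and neighbours in that order overlapped in each case. The call was lost with the scanner software's own log ratios (-2.43, adjusted p = 0.298), and without 1 of the scan days, where the adjusted p was 0.110 to 0.346 with fewer arrays. Over all alternatives the adjusted p lay between 4.8e-05 and 0.346.

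Cyp3a13, a CYP3A enzyme that mice also express in the intestine, stood between 5.46 and 5.91 in TiO2 livers at day 28 with a median of 5.68, and between 6.09 and 6.55 in TiO2 livers at day 1 with a median of 6.37. In control livers at day 28 it was 5.75, 5.82, 5.92 and 5.59, and in control livers at day 1 it was 6.68, 6.23, 6.09, 6.18 and 6.21. It was the one member whose day 28 and day 1 groups did not overlap in either TiO2 or control livers.
The means were 5.66 ± 0.17 in TiO2 livers at day 28 and 6.35 ± 0.16 in TiO2 livers at day 1 (SD, n = 6 each), a difference of -0.69 ± 0.11 with an adjusted p of 0.00896 by limma. In control livers they were 5.77 ± 0.14 at day 28 (n = 4) and 6.28 ± 0.23 at day 1 (n = 5), a difference of -0.50 ± 0.13.
The call of Cyp3a13 was lost with a normexp offset of 10 (adjusted p = 0.234), with normexp fitted on all spots (0.798), with the liver channel alone (0.305), with the scanner software's log ratios (0.924) and without 1 scan day (0.235 to 0.595), and over all alternatives the adjusted p lay between 0.00043 and 0.924. With the scanner software's log ratios its control difference was 0.24 in place of -0.50, so its direction in controls depended on the normalisation.

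**Figure D1:**
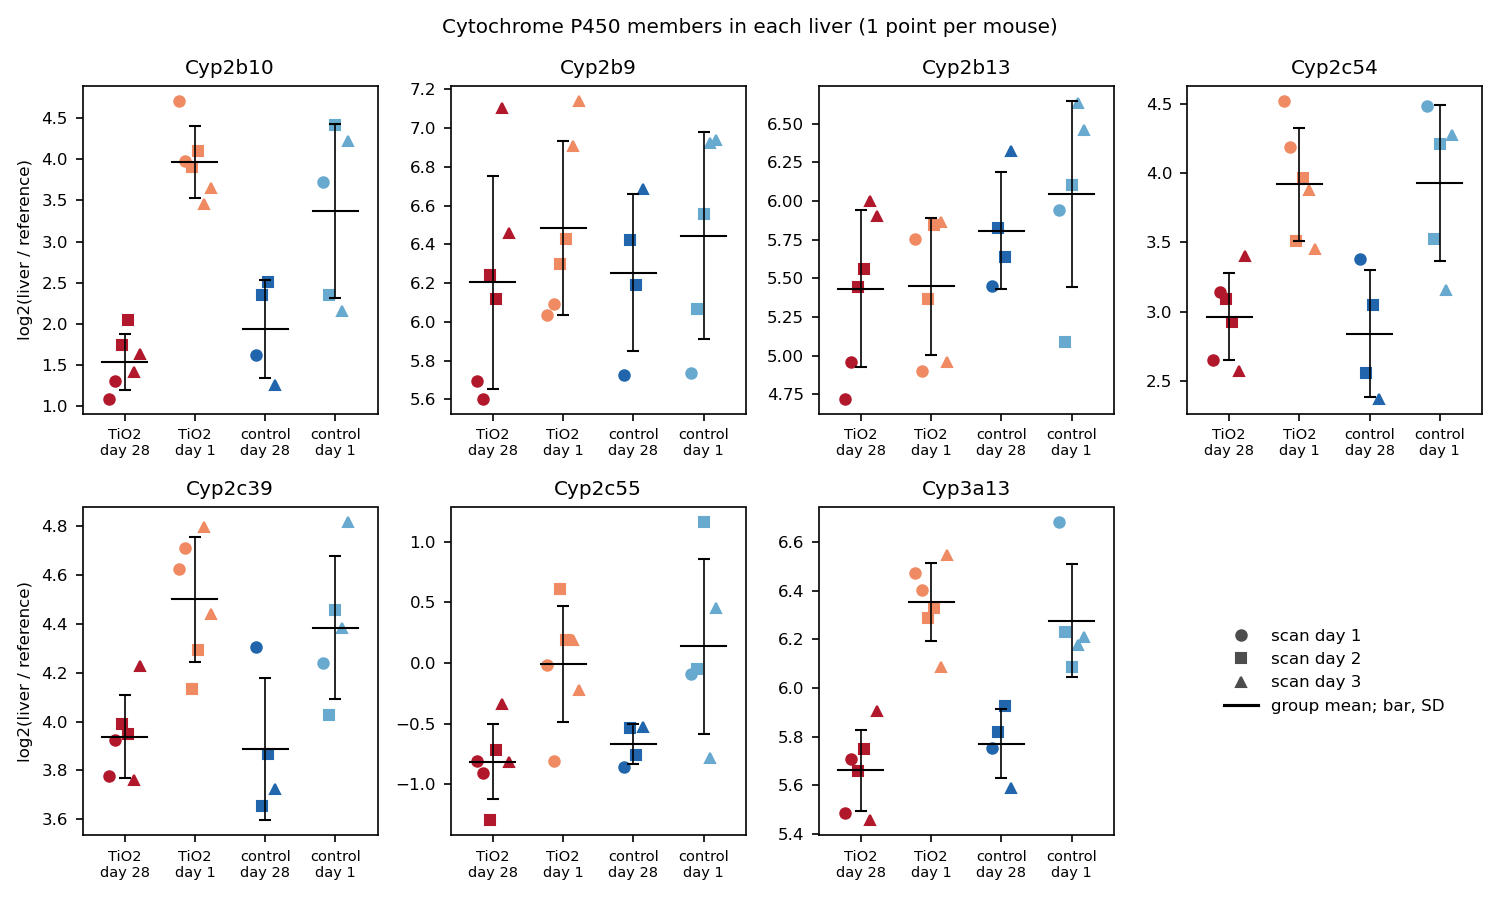
Log2 ratio of liver over reference (y axis) of each mouse for the 7 genes, by group (x axis), with 1 point per mouse, the marker giving the scan day, a horizontal line at the group mean and a bar for the SD. Cyp2b10 lies between 1.09 and 2.04 in TiO2 livers at day 28 and between 3.45 and 4.71 at day 1, while 2 control livers at day 1 lie at 2.35 and 2.15, within the control range at day 28.

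Of the CYP2C members, Cyp2c54 showed the widest differences. It stood between 2.58 and 3.40 in TiO2 livers at day 28 (median 3.01) and between 3.45 and 4.52 in TiO2 livers at day 1 (median 3.92). In control livers it was 3.38, 2.56, 3.05 and 2.37 at day 28, and 4.48, 3.53, 4.21, 3.16 and 4.27 at day 1. The TiO2 groups did not overlap, by a gap far narrower than that of Cyp2b10, and 1 control liver at day 1 lay within the day 28 range.
The difference was -0.95 ± 0.23 in TiO2 livers (means 2.97 ± 0.31 at day 28 and 3.92 ± 0.41 at day 1, SD, n = 6 each), with an adjusted p of 0.360 by limma. In control livers it was -1.09 ± 0.27 (means 2.84 ± 0.46 at day 28, n = 4, and 3.93 ± 0.56 at day 1, n = 5). With slide as a random block, Cyp2c54 passed the test in TiO2 livers at an adjusted p of 0.0199, the range over all alternatives being 0.0199 to 1.00. 

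Cyp2c39 stood between 3.76 and 4.23 in TiO2 livers at day 28 (median 3.94) and between 4.13 and 4.80 in TiO2 livers at day 1 (median 4.53). In control livers it was 4.30, 3.66, 3.87 and 3.72 at day 28, and 4.24, 4.02, 4.46, 4.38 and 4.81 at day 1. Groups of both treatments overlapped between days, in TiO2 livers through 1 mouse on either side.
Its difference was -0.56 ± 0.14 in TiO2 livers (adjusted p = 0.415, limma) and -0.50 ± 0.16 in control livers. With slide as a random block the adjusted p in TiO2 livers was 0.0418, in a range of 0.0418 to 1.00 over the alternatives, and with the scanner software's log ratios both differences turned to 0.05 in TiO2 livers and 0.08 in control livers.

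Cyp2c55, a P450 that is also expressed in the intestine, was dim. It was well above background on 2 of 6 arrays of TiO2 livers at day 28, 5 of 6 at day 1, 2 of 4 of control livers at day 28 and 5 of 5 at day 1, and it passed the filter in every group but TiO2 livers at day 28. Its values lay between -1.30 and -0.34 in TiO2 livers at day 28 (median -0.81) and between -0.81 and 0.61 at day 1 (median 0.09). They were -0.86, -0.54, -0.76 and -0.53 in control livers at day 28, and -0.09, -0.05, 1.16, -0.78 and 0.45 at day 1. In both treatments the day 28 values lay close together and low while day 1 values were spread and overlapped them.
The differences were -0.80 ± 0.25 in TiO2 livers (adjusted p = 0.770, limma) and -0.81 ± 0.29 in control livers, and values near background understate a change.

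Cyp2b9 and Cyp2b13 had 2 probes each. The brighter probe of Cyp2b9 (A_51_P467076) stood between 5.60 and 7.11 in TiO2 livers at day 28 (median 6.18) and between 6.03 and 7.14 at day 1 (median 6.36). In control livers it was 5.72, 6.42, 6.19 and 6.68 at day 28, and 5.74, 6.07, 6.56, 6.92 and 6.94 at day 1. All 4 groups overlapped, and the values were ordered by scan day: 83.5% of the variance of this probe lay between scan days, against 1.10% to 31.7% for the other members.
The differences between days were -0.28 ± 0.26 in TiO2 livers (adjusted p = 1.00, limma) and -0.19 ± 0.30 in control livers. With scan day as a block, the SE in TiO2 livers was 0.10 and the adjusted p 0.438. The second probe of Cyp2b9 (A_52_P256914) gave -0.55 ± 0.36 in TiO2 and -0.45 ± 0.42 in control livers, and the probes correlated at r = 0.44 over the 21 arrays after scan days were centred.

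The brighter probe of Cyp2b13 (A_52_P289091) stood between 4.72 and 6.00 in TiO2 livers at day 28 (median 5.50) and between 4.90 and 5.86 at day 1 (median 5.56). In control livers it was 5.45, 5.82, 5.64 and 6.32 at day 28, and 5.94, 5.09, 6.10, 6.63 and 6.46 at day 1. All 4 groups overlapped.
Its difference between days was -0.02 ± 0.26 in TiO2 livers (adjusted p = 1.00, limma) and -0.24 ± 0.30 in control livers, and the sign in TiO2 livers turned under several alternatives. The second probe (A_51_P492339) lay between 4.98 and 6.16 in TiO2 livers at day 28 and between 5.60 and 6.40 at day 1. It gave -0.56 ± 0.24 in TiO2 livers, with an adjusted p of 1.00 when each probe was a feature of its own, and -0.19 ± 0.28 in control livers. The probes of this gene thus disagreed in TiO2 livers, and the brighter one correlated with Cyp2b10 at r = 0.23 and the second at r = 0.79. Genes of one P450 subfamily are alike in sequence, and since probe sequences were not used here, binding of a probe to RNA of a related gene could not be examined.

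Taking the members side by side, all 7 had a lower mean at day 28 than at day 1 in TiO2 livers. Cyp2b13 did so by only -0.02 ± 0.26, with a sign that turned under several alternatives, and the median over all features was 0.0035. In control livers all 7 means were lower at day 28 as well, the difference on which the choice of genes rested. The day 28 and day 1 groups did not overlap for 3 of 7 members in TiO2 livers (Cyp2b10, Cyp2c54 and Cyp3a13), against 0.182% of all features in that direction, and for 1 of 7 in control livers (Cyp3a13), where the share of all features was 0.234% and nothing can be read from the count, since the genes were chosen on that comparison. The median over the 7 members was -0.50 in control livers, against -0.0040 over all features. No feature of the 17640 passed the limma test in control livers, where 531 had an unadjusted p under 0.05 (3.01%). With array weights 4 features passed it.

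**Figure D2:**
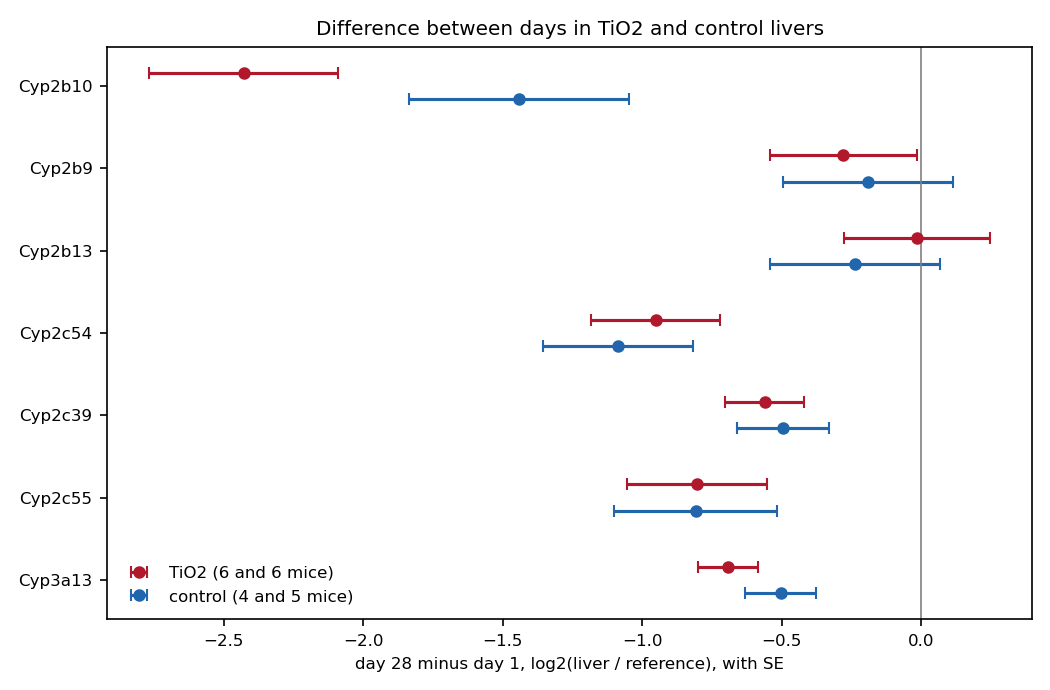
Difference between day 28 and day 1 in log2 ratio (x axis) for each of the 7 genes (y axis), with TiO2 livers above control livers and bars for the SE of the limma fit. In TiO2 livers Cyp2b10 lies at -2.43 and Cyp2b13 at -0.02, and the control points show the difference on which the genes were chosen.

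Whether TiO2 and control livers differed was read from the direct comparison at each day, which shares its control mice with the choice of genes and was not tested for the members. At day 28 the difference between TiO2 and control livers was -0.40 ± 0.38 for Cyp2b10, and it lay between -0.38 and 0.12 for the other 6 members. At day 1 it was 0.59 ± 0.36 for Cyp2b10, -0.60 ± 0.28 for Cyp2b13 and between -0.15 and 0.12 for the other 5. The second probe of Cyp2b13 gave 0.13 ± 0.25 at day 1.
For Cyp2b10 the time difference in TiO2 livers was larger than that in control livers by 0.99 ± 0.52 on the log2 scale (difference of differences -0.99). For Cyp2c54 and Cyp2c55 the differences of differences were 0.13 ± 0.36 and 0.01 ± 0.39, and for Cyp3a13 and Cyp2c39 -0.19 ± 0.17 and -0.07 ± 0.22. Over all features, limma called 0 in either comparison of TiO2 with control livers and 0 for the difference of differences. Unadjusted p-values under 0.05 were found for 161 features at day 28 (0.913%), 305 at day 1 (1.73%) and 132 for the difference of differences (0.748%), and with slide as a random block 3 features were called at day 1, none of them a member.

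Each scan day held mice of all 4 groups, so the difference between days was also read within scan days, with 2 TiO2 mice per day and scan day. The control values rest on fewer mice, 1 at day 28 against 1 at day 1 on scan day 1, 2 against 2 on scan day 2 and 1 against 2 on scan day 3. For Cyp2b10 it was -3.14, -2.11 and -2.03 in TiO2 livers on scan days 1, 2 and 3, and -2.10, -0.96 and -1.93 in control livers. For Cyp3a13 the 3 values were -0.84, -0.61 and -0.64 in TiO2 livers and -0.93, -0.29 and -0.60 in control livers. In TiO2 livers both genes were lower at day 28 on every scan day.
Cyp2c54 gave -1.45, -0.73 and -0.68 in TiO2 livers and -1.10, -1.06 and -1.34 in control livers. Cyp2c55 gave -0.44, -1.41 and -0.56 in TiO2 livers and -0.77, -1.20 and -0.36 in control livers. Cyp2c39 was lower on every scan day in TiO2 livers (-0.82, -0.25 and -0.62), while in control livers it was 0.06, -0.48 and -0.87. Cyp2b13 differed in sign between scan days in both treatments.

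**Figure D3:**
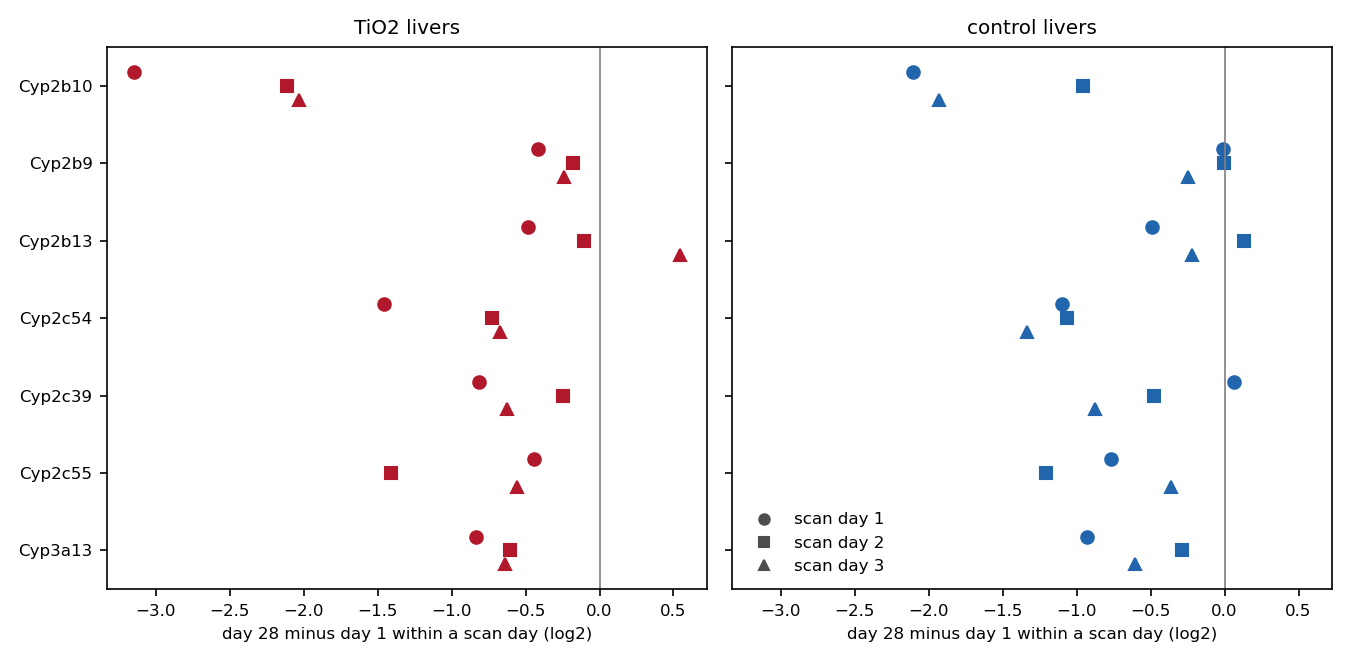
Difference between day 28 and day 1 in log2 ratio within each scan day (x axis) for the 7 genes (y axis), with TiO2 livers on the left and control livers on the right and 1 marker per scan day. In TiO2 livers every marker of Cyp2b10, Cyp2c54, Cyp2c39, Cyp2c55 and Cyp3a13 lies below 0, and Cyp2b13 has markers on both sides of 0 in both panels.

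With scan day as a block in the fit, limma called 19 features between days in TiO2 livers (0.108%), 12 of them lower at day 28, including all 6 of the fit without the block. Cyp2b10 (adjusted p = 0.00231) and Cyp3a13 (adjusted p = 0.00572) were the members among them, with Cyp2c54 at 0.0800 and Cyp2c39 at 0.106. In control livers the block left 0 features called. Day accounted for 76.8% of the variance of Cyp3a13 and 71.5% of that of Cyp2b10, then 62.1% for Cyp2c54, 56.9% for Cyp2c39 and 47.1% for Cyp2c55, but 6.85% for Cyp2b9 and 1.77% for Cyp2b13. These shares are over all 21 arrays and so include the control livers on which the genes were chosen. They are a description and were not tested.

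Some of the members varied together from mouse to mouse. Over the 21 arrays, after each scan day was centred on its mean, Cyp2b10 correlated with Cyp2c54 at r = 0.90, with Cyp3a13 at 0.85, with Cyp2c39 at 0.84, with Cyp2c55 at 0.76, with the brighter probe of Cyp2b9 at 0.64 and with that of Cyp2b13 at 0.23. The points share the 4 groups, so the difference between days enters these values. After the group means were removed as well, r was 0.75 for Cyp2b10 with Cyp2c54 and 0.75 for Cyp2c54 with Cyp2c39, against 0.50 for Cyp2b10 with Cyp2c39, 0.47 with Cyp2c55 and 0.29 with Cyp3a13. Over all 21 pairs of members it then lay between -0.32 (Cyp2c55 with Cyp3a13) and 0.75, and 5 pairs were below 0. These values describe the arrays on which the genes were chosen.
Single values of control mice at day 1 differed from gene to gene. Replicates 2 and 4, the ones low in Cyp2b10 (2.35 and 2.15), were also the lowest of the 5 in Cyp2c54 (3.53 and 3.16). Replicate 4 was the lowest in Cyp2c55 (-0.78) and replicate 2 in Cyp2c39 (4.02), while in Cyp3a13 they stood at 6.23 and 6.18, in the middle of their group. Replicate 4 was also the highest of the 5 in Cyp2b13 (6.63), stood at 6.92 in Cyp2b9, just under the highest value, and lay in the middle in Cyp2c39 (4.38). These single values were not centred by scan day, and replicates 4 and 5 were both scanned on scan day 3. Scan day held 83.5% of the variance of Cyp2b9 and 31.7% of that of Cyp2b13.

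**Figure D4:**
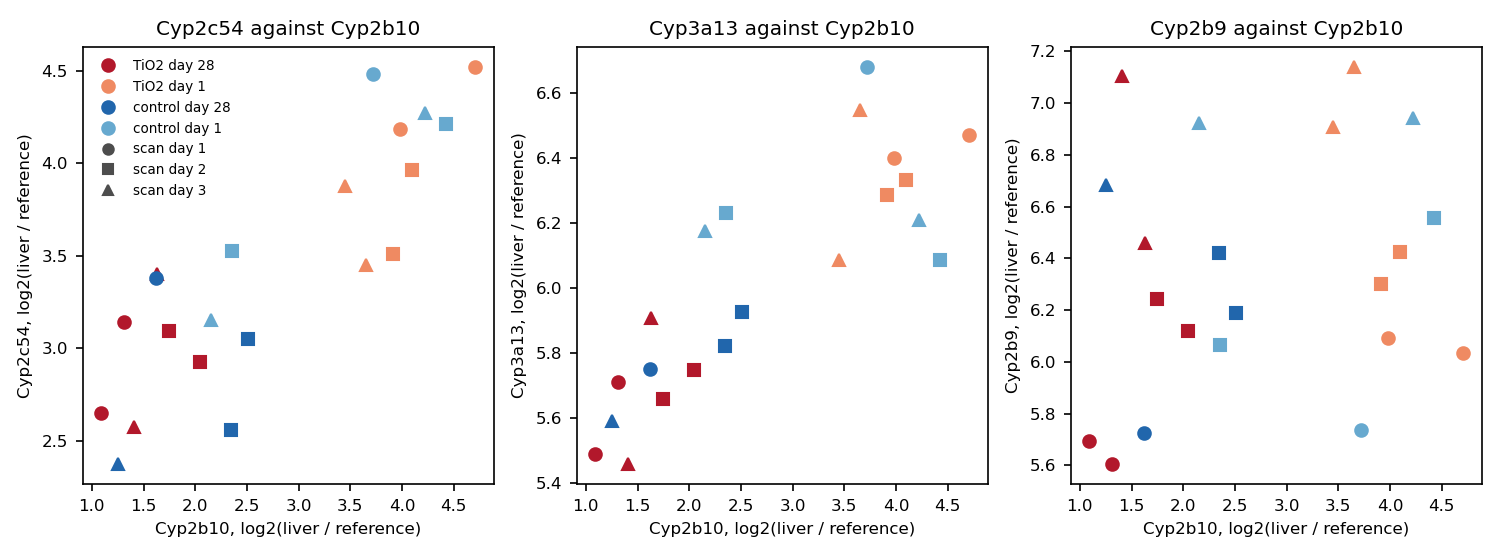
Log2 ratios of Cyp2c54, Cyp3a13 and the brighter probe of Cyp2b9 (y axes) against Cyp2b10 (x axis), 1 point per mouse, coloured by group with the marker giving the scan day. Cyp2c54 and Cyp3a13 are high where Cyp2b10 is high (r = 0.90 and 0.85 after scan days are centred), and Cyp2b9 falls into layers by scan day, which held 83.5% of its variance.

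Among the 11096 named genes compared, 1 lay above Cyp2c54 in likeness to Cyp2b10, 3 above Cyp3a13, 4 above Cyp2c39, 31 above Cyp2c55, 190 above Cyp2b9 and 2675 above Cyp2b13, on arrays that include the control livers used to choose the genes. The 10 nearest outside the members were Slc22a26 (0.90), Psmd5 (0.89), Apba3 (0.85), Bsg (0.85), Creld1 (0.83), Slc2a1 (0.83), Arl13b (0.83), Klc4 (0.83), Abcc3 (0.82) and Naprt (0.82), with r over the same scan-day-centred arrays. Slc22a26 belongs to the organic anion transporter family and differed by -0.78 ± 0.16 between days in TiO2 livers (adjusted p = 0.119, limma) and by -0.54 ± 0.19 in control livers. Abcc3, which pumps conjugates out of hepatocytes into blood, differed by -0.64 ± 0.20 (adjusted p = 0.799) in TiO2 livers and by -0.56 ± 0.24 in control livers, and its second probe gave -0.16 in TiO2 livers.
Besides Cyp2b10 and Cyp3a13, Lcn2 and Olfr1218 passed the test between days in TiO2 livers. So did 2 probes that the annotation used here pairs with no gene, A_51_P182362 and A_52_P608474. Probe A_51_P182362 differed by -1.67 ± 0.26 in TiO2 and -0.92 ± 0.30 in control livers, and A_52_P608474 by -1.18 ± 0.18 and -0.99 ± 0.21. Whether either probe measures RNA of a member could not be told. Over Lcn2, Olfr1218 and these 2 probes, differences lay between -1.77 and -0.58 in TiO2 livers and between -0.99 and -0.25 in control livers.

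The other 13 Cyp2b, Cyp2c and Cyp3a genes on the array, all of them tested, differed less between days than Cyp2b10, Cyp3a13, Cyp2c54, Cyp2c55 and Cyp2c39. None passed the limma test between days, none had an unadjusted p under 0.05 in either treatment, and their differences lay between -0.32 and 0.11 in TiO2 livers and between -0.22 and 0.30 in control livers. The medians were 0.02 in TiO2 livers and -0.10 in control livers. The differences of the members Cyp2b9, in both treatments, and Cyp2b13, in TiO2 livers, lay within the range of these 13 genes. Of the 13, Cyp2b19, Cyp2c66 and Cyp2c38 were dim, well above background on 16, 12 and 19 of the 21 arrays. Values near background understate a change.
Cyp3a11, the main CYP3A enzyme of mouse liver and a PXR target, stood at 6.46 ± 0.65 in TiO2 livers at day 28 and 6.66 ± 0.39 at day 1 (SD, n = 6 each), a difference of -0.20 ± 0.29. Cyp2c29, another gene that CAR activators induce, had the largest difference of the 13 in TiO2 livers, -0.32 ± 0.27, with -0.20 ± 0.32 in control livers. Cyp2c40, Cyp2c70, Cyp3a41a, Cyp3a16 and Cyp2b19 differed by between -0.05 and 0.06 in TiO2 livers and between -0.22 and -0.01 in control livers.
The difference between these genes and the members was not tested.

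**Figure D5:**
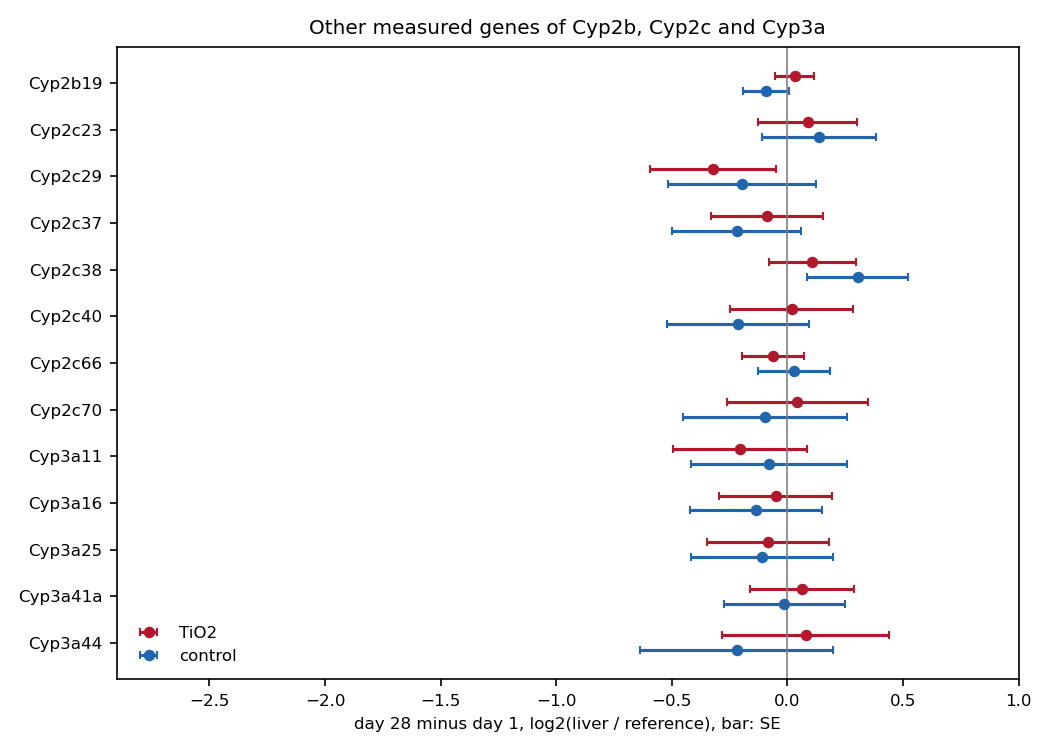
Difference between day 28 and day 1 in log2 ratio (x axis, drawn to the span of Cyp2b10) for the 13 other Cyp2b, Cyp2c and Cyp3a genes (y axis), TiO2 above control, with bars for the SE. All points lie between -0.32 and 0.30.

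The receptor genes did not pass the test either. Nr1i3, which encodes CAR, stood at 3.54 ± 0.32 in TiO2 livers at day 28 and 3.56 ± 0.39 at day 1 (SD, n = 6 each), and at 3.72 ± 0.36 in control livers at day 28 (n = 4) and 3.54 ± 0.55 at day 1 (n = 5). Its difference between days was -0.01 ± 0.22 in TiO2 livers and 0.17 ± 0.26 in control livers. For Nr1i2, which encodes PXR, the differences were -0.04 ± 0.40 in TiO2 and -0.32 ± 0.47 in control livers, and for Rxra, their partner, 0.15 ± 0.14 in TiO2 and -0.03 ± 0.16 in control livers. RNA levels say nothing of the activity or location of these receptors.
Of 19 receptor, partner and cofactor genes, 0 passed in either treatment (medians 0.04 in TiO2 and -0.03 in control livers). Egfr, the receptor whose signalling holds CAR in the cytoplasm, had the smallest p in TiO2 livers. Its level was 2.73 ± 0.61 in TiO2 livers at day 28 and 1.55 ± 0.59 at day 1, a difference of 1.18 ± 0.34 (adjusted p = 0.605, limma), and its other probes gave -0.09, 0.26 and 0.60 in TiO2 livers. In control livers Egfr differed by 0.58 ± 0.40. Ncoa6, a coactivator of nuclear receptors, differed by 0.31 ± 0.14 in TiO2 and 0.27 ± 0.17 in control livers, with 0.03 in TiO2 livers by its second probe, and Hsp90aa1, a chaperone of the complex that holds CAR in the cytoplasm, by -0.54 ± 0.26 in TiO2 and -0.41 ± 0.33 in control livers.

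Of 35 tested genes that CAR or PXR activators are known to induce outside these subfamilies, 0 passed the limma test between days. Unadjusted p-values under 0.05 were found for 5 of them in TiO2 livers and 8 in control livers, all lower at day 28, against 1.61% and 1.20% of all features in that direction. The medians were -0.09 in TiO2 and -0.16 in control livers. Abcc3, given above, Aldh1a7, a retinal dehydrogenase relative (-0.43 ± 0.15 in TiO2 and -0.23 ± 0.18 in control livers), and Akr1b7, an aldo-keto reductase (-0.67 ± 0.29 in TiO2 and -0.98 ± 0.34 in control livers), had the smallest p in TiO2 livers.
Por, the reductase that passes electrons to all these P450s, differed by -0.13 ± 0.12 in TiO2 and 0.06 ± 0.13 in control livers. Alas1, the first enzyme of the haem synthesis they need, differed by 0.28 ± 0.42 in TiO2 and 0.65 ± 0.48 in control livers.

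Other gene groups known to bear on liver P450 RNA are given as values, and their part in the members' differences was not tested. Of 18 acute phase genes, 17 had a lower mean at day 28 in TiO2 livers and 1, Lcn2, an iron-sequestering protein of inflammation, passed the test. Lcn2 differed by -1.77 ± 0.25 in TiO2 livers (adjusted p = 0.00616, limma) and by -0.66 ± 0.29 in control livers. Saa3 and Saa1, acute phase apolipoproteins, differed by -2.46 ± 0.47 and -2.01 ± 0.37 in TiO2 livers (adjusted p = 0.0736 and 0.0552) and by -0.10 ± 0.55 and -0.23 ± 0.43 in control livers. A second probe of Saa1 gave -1.15 in TiO2 livers. In control livers 15 of the 18 had a lower mean at day 28, and 0 passed the test.
Of 12 clock and PAR bZIP genes, 0 passed. Nfil3, a repressor of the PAR bZIP factors, differed by -0.85 ± 0.25 in TiO2 livers (adjusted p = 0.605) and -0.67 ± 0.29 in control livers. Arntl, the core activator of the clock, differed by -0.64 ± 0.21 in TiO2 livers (adjusted p = 0.884) and -0.64 ± 0.25 in control livers. Dbp, a PAR bZIP factor, differed by 1.00 ± 0.51 in TiO2 and 0.79 ± 0.60 in control livers. The labels used here give no time of day for the killing of the mice.
Of 17 female-predominant and 15 male-predominant liver genes 0 passed, with medians of -0.14 and -0.01 in TiO2 livers and -0.01 and -0.07 in control livers. Hao2, a female-predominant peroxisomal oxidase, differed by -1.25 ± 0.53 in TiO2 livers (adjusted p = 1.00) and -1.40 ± 0.61 in control livers. Acot3 and Trim24 of the same list differed by -0.44 ± 0.19 and -0.33 ± 0.15 in TiO2 livers and by -0.19 ± 0.22 and -0.03 ± 0.17 in control livers. Of the male-predominant list, Ttc39c, Selenbp2 and Elovl3 differed by 0.44 ± 0.24, -0.20 ± 0.12 and 0.35 ± 0.31 in TiO2 livers and by 0.63 ± 0.28, -0.27 ± 0.15 and 0.51 ± 0.35 in control livers. The 16 genes of fasting and fatty acid oxidation gave medians of 0.12 in TiO2 and -0.12 in control livers and 0 that passed. Fgf21, a fasting hormone of the liver, Cpt1a, which brings fatty acids into mitochondria, and Angptl4, an inhibitor of lipoprotein lipase, differed by 0.43 ± 0.25, 0.20 ± 0.14 and 1.00 ± 0.72 in TiO2 livers and by 0.22 ± 0.29, 0.15 ± 0.17 and 1.02 ± 0.84 in control livers.

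Markers of liver cell types did not pass the test between days in either treatment. The 14 hepatocyte markers gave a median difference of -0.07 in TiO2 and -0.07 in control livers. The 9 pericentral hepatocyte markers, from the zone where these P450s are highest, gave 0.06 in TiO2 and 0.0046 in control livers, and the 8 periportal ones -0.02 in TiO2 and -0.07 in control livers. For 7 Kupffer cell and macrophage markers the median difference was -0.08 in TiO2 and -0.04 in control livers. Of 7 intestinal markers on the array, 2, Fabp2 and Lgals4, were bright enough to be tested, and 2 to 4 were above background on any array. In whole liver, fewer cells of a type and less RNA per cell cannot be told apart.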

How the data were processed

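Liver RNA of 21 mice was measured on 2-colour Agilent arrays, 1 array per mouse; the design text speaks of 22 arrays, of which 21 were analysed here. Per the file headers, the deposited scanner files hold spot intensity values from Agilent Feature Extraction 10.7.3.1, and their log10 ratio of red over green is the scanner software's; version 9.5.3.1 appears in the processing notes of the submitters. The authors' deposited table holds log2 values of the same arrays, which correlated with those computed here at r of 0.996 to 0.997, with medians of -0.06 to -0.01 per array. How that table was made is stated in no source used here. Probes were named through the RefSeq gene table, which paired 23374 of 41174 probes with a gene.

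Median signals were corrected with normexp (offset 50) and loess-normalised within arrays, with control spots and the 103 to 502 spots marked by the scanner software on an array at weight 0 (limma 3.58.1, R 4.3.3). Probes were kept when well above background in the liver channel on at least 50% of the arrays of a group (21405). Each named gene was represented by its brightest kept probe (11255 features). Kept probes without a gene name each stood as a feature of their own, which gave 17640 features in all. A model of 4 group means over all arrays was fitted with limma, with Benjamini-Hochberg adjustment and a threshold of 0.05, and the steps were checked on simulated data. Precision is limited by the number of arrays, 4 to 6 a group. The p-values of this fit measure the spread between arrays, which holds differences between scan days as well as between mice. With scan day as a block, 1537 features had an unadjusted p under 0.05 between days in TiO2 livers by limma, against 658 without it. In control livers the counts were 1362 and 531. Alternatives were other background, normalisation, filter, probe and block choices, leaving out mice or scan days, and the authors' table; treating each probe as a feature was chosen after seeing the data.

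The 7 genes and all gene lists were chosen with earlier results of these data known. Named genes were all members, called genes, the 3 brightest others of each subfamily, the 3 of each list with the smallest p in TiO2 livers (cell type marker lists aside), Nr1i3, Nr1i2, Rxra, Por and Alas1, and the 10 named genes most like Cyp2b10.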

Additional observations from a re-analysis of the deposited data

Results flagged for a closer look

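Cyp3a13 in control replicate 1 at day 1 stood at 6.68, against 6.09 to 6.23 in the other 4 control mice of that day, a gap of 0.755 of the group's range. It was the 1 value among 36 sets of a member probe and a group that stood this far from its group. By chance alone about 5% of such sets hold a value this far out.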

How the results depend on the processing

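The count of features that passed the test between days in TiO2 livers, 6 in the text, was 3 with a normexp offset of 10 or with normexp on all spots, 1 with the scanner software's log ratios, 19 with scan day as a block, 31 with slide as a random block and 15 with array weights. It was 1, 0 and 0 without scan day 1, 2 or 3, with fewer arrays (684, 631 and 429 features at an unadjusted p under 0.05), and 5 to 9 when 1 mouse at a time was left out. In control livers the count, 0 in the text, was 4 with array weights and 0 to 1 when 1 mouse was left out. Between TiO2 and control livers at day 1 it was 3 with slide as a random block, 1 with array weights and 0 to 3 when 1 mouse was left out. Cyp2b10 in TiO2 livers differed by between -2.88 and -1.89 over the alternatives and Cyp3a13 by between -1.67 and -0.43, and both stayed called when any 1 mouse was left out. The Cyp2b13 difference in TiO2 livers, -0.02 in the text, turned to 0.0766 with the liver channel alone, 0.00812 with the scanner software's log ratios, 0.0205 with slide as a random block, 0.0882 with array weights, 0.219 without scan day 1 and 0.0278 without scan day 2, and lay between -0.13 and 0.13 when 1 mouse was left out. That of Cyp2c39 turned to 0.0539 with the scanner software's log ratios. The cause of these changes was not tested beyond the smaller number of arrays. No paired analysis was possible because replicate numbers follow the order of the samples and pair no mice. Dim signals, above all of Cyp2c55 and of Cyp2b10 at day 28, limit what a fold change can show.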
